A study of Homo sapiens with 4 samples.

Results

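Gene expression in untreated JJ012 cells, a human chondrosarcoma line, was compared with that in untreated 143B cells, a human osteosarcoma line. The genes were chosen by level alone. A gene was kept when it had at least 1 FPKM (counts per kilobase of exon, scaled to the total count of the library) in either untreated library, and 16925 of the 61806 genes of the table were kept. The series holds 4 libraries of cells grown in detachment (suspension), namely each line untreated and each line after melatonin. Only the 2 untreated libraries were compared, and the melatonin libraries were not used. Neither untreated group carried a genetic change or an added agent in its labels. RNA was extracted with TRIzol, selected for poly(A) and sequenced as read pairs. There was 1 library per line, so no test could be made, and a difference between the lines cannot be told apart from a difference between these 2 cultures or libraries.

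Chondrosarcomas are tumours that make cartilage matrix, and osteosarcomas are tumours that make osteoid, the unmineralised matrix of bone. Normal chondrocytes depend on the transcription factor SOX9 and secrete type II collagen and aggrecan, whereas osteoblasts depend on RUNX2 and SP7 and secrete type I collagen. JJ012 carries a mutation of IDH1, the cytosolic isocitrate dehydrogenase. The 143B line descends from HOS osteosarcoma cells, was transformed with an oncogene and was selected for a lack of thymidine kinase. Each line represents a single tumour.

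The JJ012 library held 19218343 counts and the 143B library 15889564 counts. At least 1 FPKM was reached by 14474 genes in JJ012 and 13210 genes in 143B. Mitochondrially encoded genes took 6.78% of the JJ012 counts and 1.63% of the 143B counts. The 50 genes with the most counts took 18.6% and 14.4%. The difference of a gene was taken as log2(JJ012 FPKM + 1) minus log2(143B FPKM + 1), so a positive value means a higher level in JJ012, and the pseudocount of 1 understates the differences of low genes. For single genes the fold is the ratio of the counts after scaling each library to the same total (CPM), given with its exact (Clopper-Pearson) 95% interval. This interval covers counting error only and not the variation between cultures. A gene with 0 counts in a library was set to the floor of 3 counts, which was 0.156 CPM in JJ012 and 0.189 CPM in 143B, and its fold is given as a lower bound.

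The lines shared 10759 genes at 1 FPKM or more, while 3715 genes reached this level in JJ012 alone and 2451 in 143B alone. A difference of at least 0.58 on the log2 scale, a 1.49-fold difference in FPKM + 1, was taken as the threshold. By this threshold 6988 genes (41.3%) were higher in JJ012 and 4635 genes (27.4%) were higher in 143B. The member counts of gene groups given below are to be read beside these shares. At a difference of 2, which is a 4-fold difference in FPKM + 1, 1301 genes (7.69%) were higher in JJ012 and 930 genes (5.49%) in 143B. JJ012 thus held 60.1% of the genes past 0.58. This split depended on scaling. The median gene was 0.29 higher in JJ012 with the FPKM as deposited, against 0.06 with TMM factors, 0.01 with median-of-ratios size factors and 0.04 after rescaling to TPM. JJ012 then held 51.9% of the genes past 0.58 with TMM factors and 51.2% with TPM, the size factors gave 5705 genes higher in JJ012 and 5696 in 143B, and JJ012 held 48.6% when the differences were centred on the median gene. Medians of gene groups are therefore given below also as their distance from the median gene. Across the genes kept, log2 levels of both lines were correlated at 0.63 (Pearson) and 0.56 (Spearman), which describes genes of 2 libraries and not replicates.

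**Figure D1:**
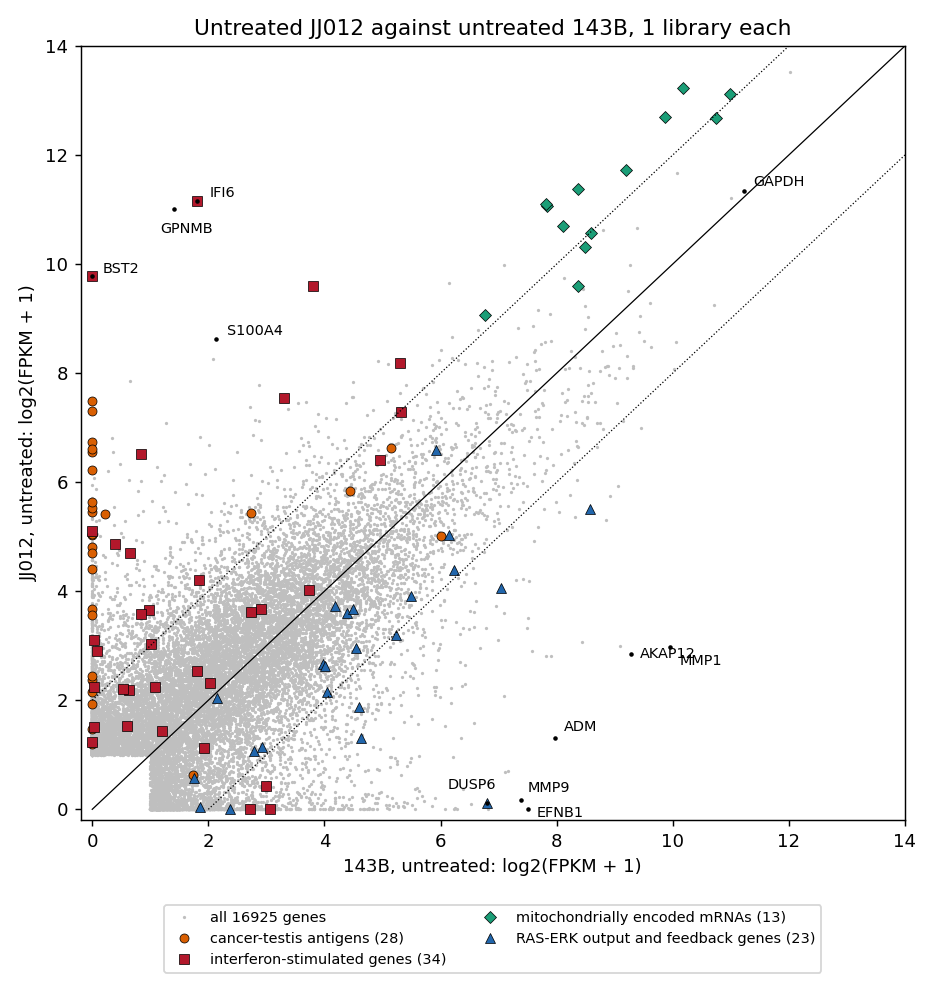
Each grey point is a gene with at least 1 FPKM in either library, with its level in 143B on the horizontal axis and in JJ012 on the vertical axis, both as log2(FPKM + 1). The solid line marks equal levels and the dotted lines a log2 difference of 2. Cancer-testis antigens, interferon-stimulated genes and mitochondrially encoded mRNAs lie mostly above the solid line, and the RAS-ERK output genes below it.

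Short genes were relatively higher in JJ012. Over the 12329 protein-coding genes kept, the difference had a Spearman correlation of -0.30 with exonic length. The median difference was 0.92 in the shortest of 5 equal groups by length, 0.26 in the middle group and -0.23 in the longest. The difference also had a Spearman correlation of 0.15 with the GC content of the longest transcript. The part of these gradients in the single results was not tested. For this reason the medians of several groups are also given after subtracting the running median of the differences over exonic length, an alternative chosen after seeing the data and called the length-adjusted median below.

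**Figure D2:**
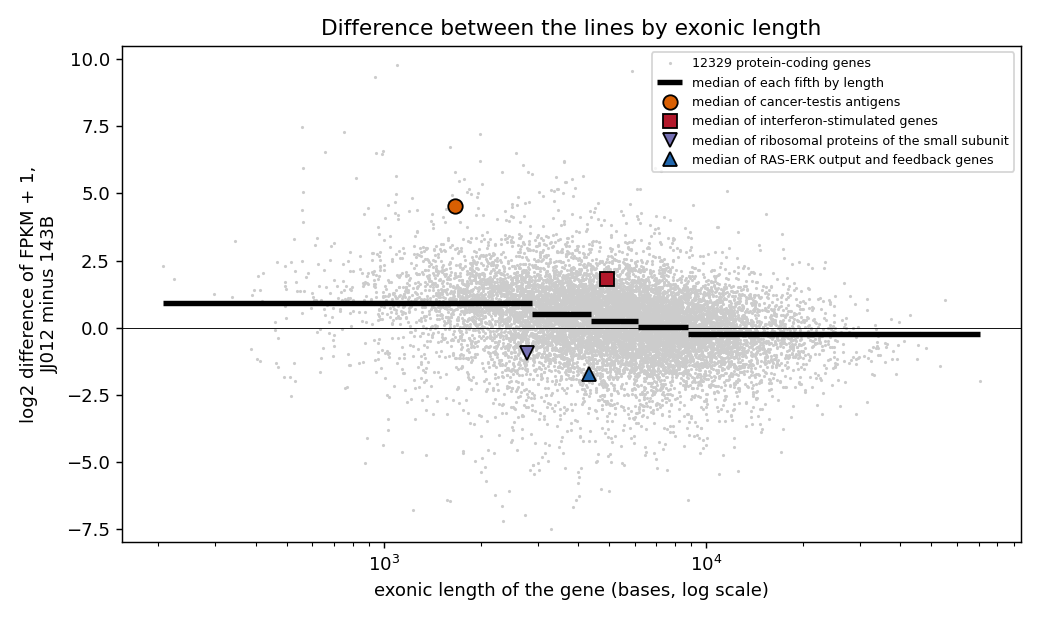
Each grey point is a protein-coding gene, with its exonic length in bases on a log axis and its log2 difference between the lines on the vertical axis. Black bars give the median of each of 5 equal groups of genes by length, which goes from 0.92 in the shortest to -0.23 in the longest, and the large symbols give the medians of 4 gene groups at their median length.

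The 15 protein-coding genes with the largest difference towards JJ012 included interferon-induced, melanosomal and cancer-testis genes. BST2 (ENSG00000130303, chr19:17402939-17405630), a membrane protein that tethers budding virus particles, had 873.28 FPKM in JJ012 and 0 counts in 143B, and was at least 5092-fold higher in JJ012. GPNMB (ENSG00000136235, chr7:23235967-23275108), a transmembrane glycoprotein of melanosomes, macrophages and osteoblasts, had 2048.56 FPKM in JJ012 and 1.67 FPKM in 143B, which was 1224-fold (95% interval 1047 to 1441). IFI6 (ENSG00000126709), a mitochondrial protein induced by type I interferon, had 2285.42 and 2.49 FPKM and was 919-fold higher (666 to 1305). GPNMB, IFI6 and BST2 were thus among the 8 most abundant nuclear protein-coding transcripts of JJ012 and at or near 0 in 143B. S100A4, a calcium-binding protein of motile cells, had 394.54 and 3.39 FPKM (116-fold, 88.3 to 156). The secreted protein ANGPTL2 had 303.85 and 3.21 FPKM, and SBSN, a protein of the suprabasal epidermis, had 230.14 and 0.57 FPKM. SCG2, a granin of secretory granules, had 90.74 FPKM in JJ012 and 0 counts in 143B. CLEC3B, MXRA8 and the 5 cancer-testis genes GAGE2A, PAGE5, MAGEB2, CTAG2 and PAGE1 made up most of the remainder, together with MAGEC2.

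The 15 genes with the largest difference towards 143B included matrix proteases and signalling genes. EFNB1 (ENSG00000090776, chrX:68829021-68842160), the transmembrane ligand ephrin-B1 of Eph receptors, had 0 counts in JJ012 and 9477 counts, or 180.57 FPKM, in 143B, and was at least 3821-fold higher in 143B. MMP9 (ENSG00000100985), a gelatinase, had 0.13 FPKM in JJ012 and 165.82 FPKM in 143B (1241-fold, 570 to 3382). MMP1 (ENSG00000196611), the interstitial collagenase, had 6.86 and 994.01 FPKM (145-fold, 131 to 161) and was among the 8 most abundant nuclear protein-coding transcripts of 143B. The phosphatase DUSP6, which inactivates ERK, had 0.08 and 110.9 FPKM. EFNB1, MMP9 and DUSP6 were close to absent in JJ012, with at most 6 counts, whereas MMP1 was detected there at a low level. The vasodilator peptide ADM had 1.48 and 249.92 FPKM, the scaffold protein AKAP12 had 6.21 and 620.34 FPKM, and the lipid droplet protein PLIN2 had 6.98 and 544.9 FPKM. RRAGA, a GTPase that recruits mTORC1 to lysosomes, had 0.62 and 142.32 FPKM. RRAGA and PLIN2 lie on chromosome 9, at chr9:19049427-19051025 and chr9:19108375-19149290. FOXR1, a forkhead factor of the germ line, had 0 counts in JJ012, against 111.42 FPKM in 143B. ICAM5, PLEK2, UCHL1, TFPI2 and SFRP1 were also among the 15 genes, with 143B levels between 66.28 and 137.4 FPKM.

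The most abundant housekeeping transcripts were closer. GAPDH had 2582.03 FPKM in JJ012 and 2389.33 FPKM in 143B, and the actin-binding thymosin TMSB10 had 2354.72 and 2055.13 FPKM. The ferritin light chain FTL was 3.05-fold higher in JJ012 (3.00 to 3.11), with 3267.78 and 1069.88 FPKM. The translation elongation factors EEF1A1 and EEF2 were the reverse, 2.80-fold (2.78 to 2.83) and 3.88-fold (3.82 to 3.94) higher in 143B. Of the same machinery, 22 of the 31 ribosomal proteins of the small subunit were higher in 143B and 1 in JJ012, with a median of -0.94, which was -1.22 from the median gene, and a length-adjusted median of -1.56. RPSA, a ribosomal protein that also acts as a laminin receptor, had 29.4 and 194.54 FPKM, and RPS26 was the member higher in JJ012, with 47.5 and 24.83 FPKM, a difference that changed sign with length adjustment. The summed level of the 31 genes was 4610.87 FPKM in JJ012 and 8650.99 FPKM in 143B. Processed copies of these genes elsewhere in the genome can take or divide their reads, so single members are uncertain.

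All 13 mitochondrially encoded mRNAs were higher in JJ012, against 41.3% of all genes. They encode subunits of the respiratory chain and the ATP synthase. Their median difference was 2.53, which was 2.24 from the median gene, and the length-adjusted median was 1.99. MT-CO2 had 9621.66 FPKM in JJ012 and 1160.61 FPKM in 143B (8.29-fold, 8.14 to 8.44), and MT-ND6 had 2197.6 and 223.69 FPKM (9.82-fold, 9.37 to 10.3). MT-ND4L, at 2.37-fold (2.24 to 2.51), was the member with the smallest difference. In these bulk samples a larger number of mitochondria, more RNA per mitochondrion and a different recovery of mitochondrial RNA cannot be told apart, and likewise fewer cells of a kind cannot be told apart from less RNA per cell.

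**Figure D3:**
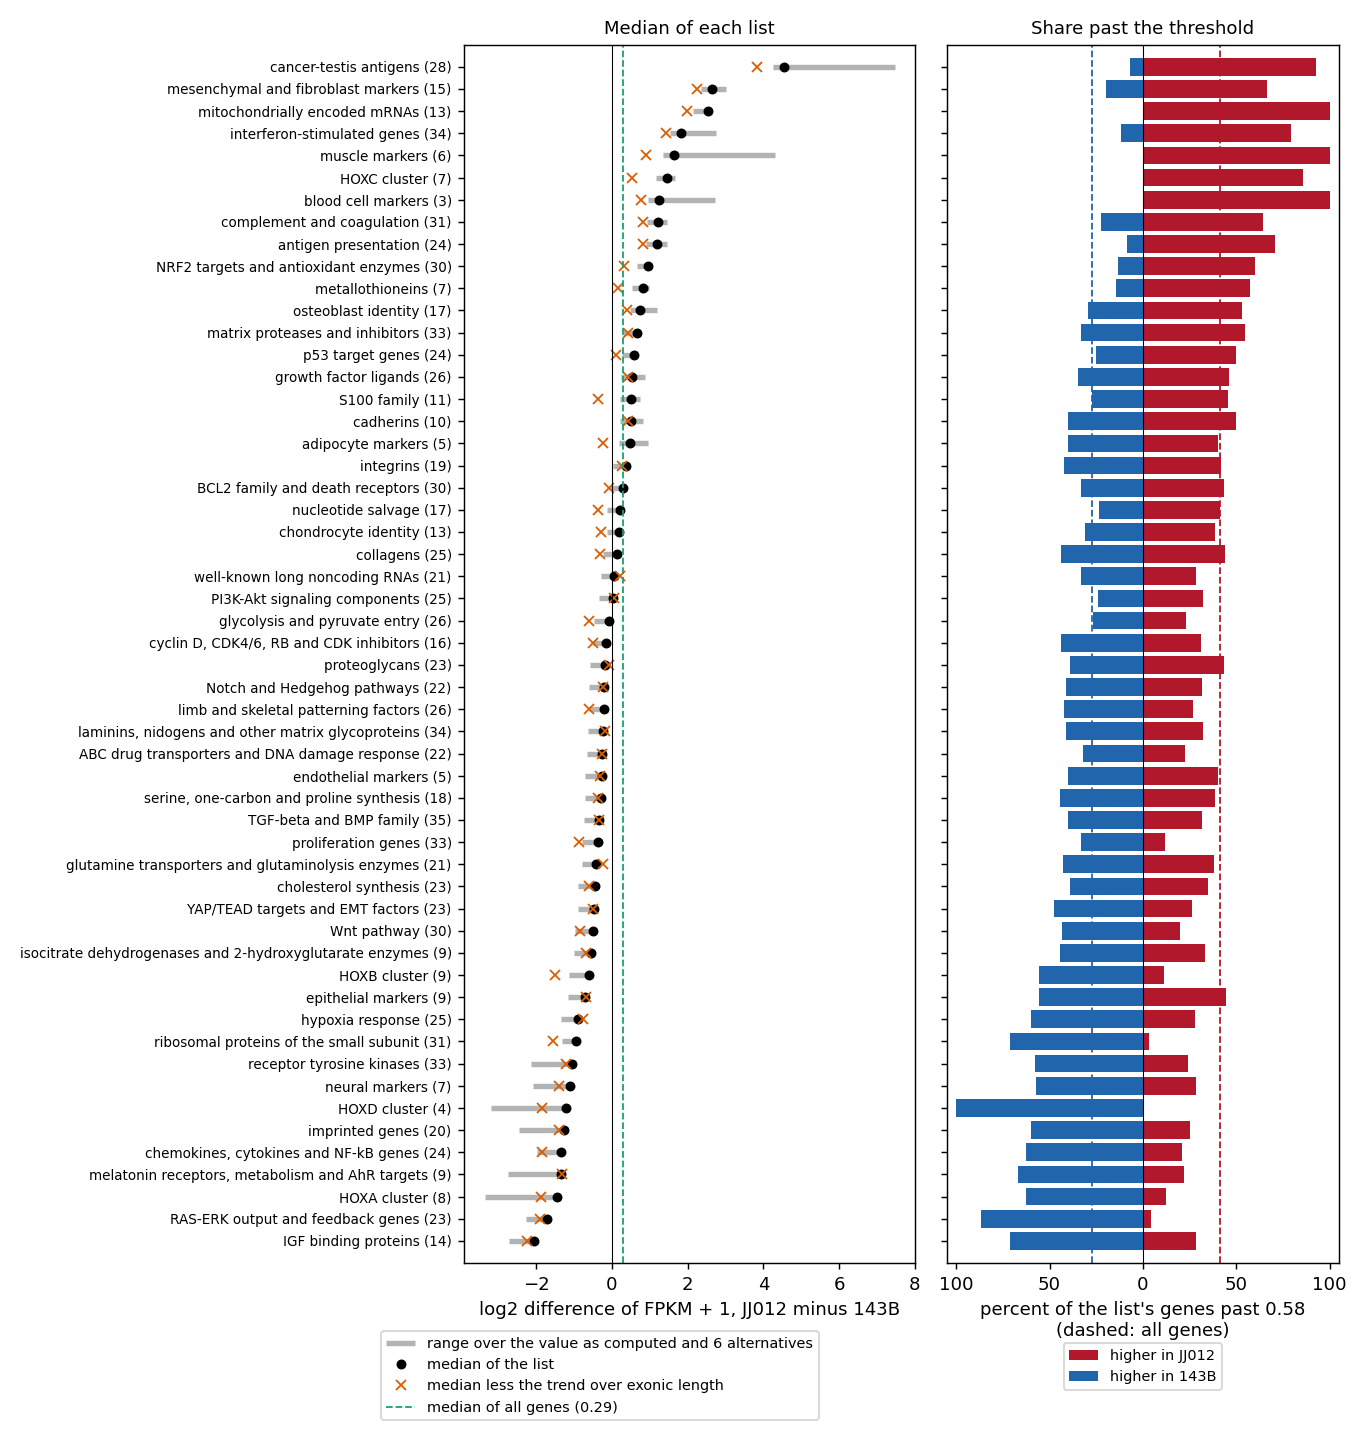
For each of 54 gene groups, with the number of genes kept in parentheses, the left panel shows the median log2 difference between the lines (black), its range over 6 alternatives (grey) and the length-adjusted median (orange cross), and the right panel the percent of genes past 0.58 in each direction. Cancer-testis antigens, with a median of 4.55, are at the top and IGF binding proteins, with -2.05, at the bottom. The dashed lines give the median and the percentages of all genes.

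Cancer-testis antigens formed the group with the highest median. These genes are normally silent outside the germ line and placenta and are often derepressed in tumours. Of the 44 members found in the table, 28 were kept, and 26 of these were higher in JJ012 and 2 in 143B. The median difference was 4.55, which was 4.26 from the median gene, and the length-adjusted median was 3.82. The summed level of the group was 1289.75 FPKM in JJ012 and 127.25 FPKM in 143B. Of the 28 members kept, 22 had 0 counts in 143B and could pass the filter only by their level in JJ012. The 16 members below 1 FPKM in both lines do not enter the median. Its size and rank therefore depend on the filter. GAGE2A had 178.85 FPKM in JJ012, PAGE5 157.14 FPKM, MAGEB2 105.88 FPKM, CTAG2 96.0 FPKM and MAGEC2 73.88 FPKM, and all of them had 0 counts in 143B. MAGEA1 and MAGEA3, the founding antigens of the MAGE family, had 42.97 and 45.11 FPKM in JJ012 and 0 counts in 143B. The exceptions were PRAME, with 31.25 FPKM in JJ012 and 63.35 FPKM in 143B (2.03-fold, 1.92 to 2.14), and LIN28B, a repressor of let-7 microRNAs, with 0.55 and 2.35 FPKM. MAGED1, MAGED2 and MAGEH1, MAGE genes that many tissues express, were detected in both lines, at 20.79, 34.56 and 5.68 FPKM in 143B. Of the 28 members kept, 25 lie on chromosome X, as do 39 of the 44 found, so this is the make-up of the list. GAGE, PAGE, CTAG, CSAG and several MAGEA genes are near-identical copies of each other, and how their shared reads were divided by the counting is not known.

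Genes detected in a single line were then counted over the whole table. A gene was called detected in a single line when it had at least 5 FPKM in that line and at most 3 counts in the other. This held for 276 genes (1.63%) in JJ012 and 185 genes (1.09%) in 143B, of which 141 and 89 were protein-coding. Of the JJ012 genes 40 lay on chromosome X, 31 of them protein-coding, against 6 and 4 of the 143B genes. The JJ012 genes included 16 of the cancer-testis list, which is mostly X-linked. The share of chromosome X among all genes is not given here. In 143B these genes also included 59 genes of short RNA types (miRNA, snRNA, snoRNA, miscellaneous RNA and rRNA), against 12 in JJ012. Poly(A) selection and fragment length limit how such short genes are recovered, and their part in this difference was not tested.

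The promoters of the single-line genes differed in CG content. Promoters (RefSeq, GRCh38.p14, from 250 bases before to 50 bases after the start site) were matched for 93 of the 141 protein-coding JJ012 genes and 67 of the 89 protein-coding 143B genes. The median number of CG dinucleotides was 10 in the JJ012 set and 25 in the 143B set, against 26 in the 9908 matched protein-coding genes kept and 14 in all 27305 promoters of the table. At most 5 CG were held by 25.8% of the JJ012 promoters, by 13.4% of the 143B promoters and by 6.83% of those of all protein-coding genes kept. The word TGTGGT, on either strand, was in 17.2% of the JJ012 promoters, 4.48% of the 143B promoters and 9.11% of those of all protein-coding genes kept. Of all 27305 promoters, 13.1% held it. TATAAA was in 9.68%, 13.4% and 5.82%. The matched promoters of the cancer-testis antigens kept held a median of 13 CG. The promoters of 2 cancer-testis genes detected in JJ012 alone and of EFNB1, detected in 143B alone, are shown with every CG in capitals.
MAGEB2 (chrX:30215313-30215612, plus strand): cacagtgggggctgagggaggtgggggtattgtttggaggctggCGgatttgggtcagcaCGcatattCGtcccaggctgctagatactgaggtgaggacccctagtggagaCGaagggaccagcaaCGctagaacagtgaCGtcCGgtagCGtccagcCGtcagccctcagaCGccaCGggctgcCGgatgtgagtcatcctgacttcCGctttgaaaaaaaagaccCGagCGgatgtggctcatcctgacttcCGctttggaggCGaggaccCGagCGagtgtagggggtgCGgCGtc
MAGEC2 (chrX:142205241-142205540, minus strand): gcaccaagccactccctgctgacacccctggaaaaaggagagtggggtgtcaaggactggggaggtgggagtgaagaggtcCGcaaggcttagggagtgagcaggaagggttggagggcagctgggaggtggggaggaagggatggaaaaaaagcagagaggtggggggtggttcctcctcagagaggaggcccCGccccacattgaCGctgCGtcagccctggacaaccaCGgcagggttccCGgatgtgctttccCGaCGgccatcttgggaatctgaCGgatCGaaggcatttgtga
EFNB1 (chrX:68828771-68829070, plus strand): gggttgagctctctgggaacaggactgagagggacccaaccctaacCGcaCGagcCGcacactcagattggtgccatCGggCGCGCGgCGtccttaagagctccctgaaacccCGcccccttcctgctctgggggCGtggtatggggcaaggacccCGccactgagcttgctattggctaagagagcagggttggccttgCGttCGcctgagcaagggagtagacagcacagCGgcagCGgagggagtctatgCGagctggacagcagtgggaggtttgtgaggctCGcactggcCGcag
MAGEB2 held 21 CG, MAGEC2 10 and EFNB1 18. These promoters are examples and do not stand for their sets. Of other single-line genes named above, GAGE2A and PAGE1 of JJ012 held 13 CG each, PAGE5 10 and BST2 2. FOXR1, UCHL1, TFPI2 and PLEK2 of 143B held 22, 25, 26 and 30. Methylation was not measured in this series.

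Interferon-stimulated genes were higher in JJ012 as a group. These genes are switched on by interferon through STAT2, IRF9 and their partners and carry out antiviral functions. Of 34 members kept, 27 were higher in JJ012 and 4 in 143B, and 16 and 3 passed a difference of 2. The median was 1.82, which was 1.53 from the median gene, and the length-adjusted median was 1.43. The summed level was 4954.61 FPKM in JJ012 and 197.2 FPKM in 143B. IFITM1, a membrane protein that blocks virus entry, had 771.38 FPKM in JJ012 and 12.88 FPKM in 143B (59.9-fold, 53.8 to 66.8). The ubiquitin-like ISG15 had 184.79 and 8.93 FPKM (20.7-fold). IFI27 had 90.64 and 0.8 FPKM, and IFI44L had 33.35 FPKM in JJ012 and 0 counts in 143B. The RNA sensor IFIH1 had 11.02 and 0.78 FPKM. Levels of the antiviral synthetases were low, with 3.73 FPKM of OAS1, 6.48 FPKM of OAS2 and 3.58 FPKM of OAS3 in JJ012. The group was not uniform. HERC5, the ligase that attaches ISG15 to proteins, had 1 count in JJ012 and 557 counts, or 7.36 FPKM, in 143B. CGAS, the sensor of cytosolic DNA, had 0 counts in JJ012 and 5.61 FPKM in 143B. IRF7, a regulator of interferon genes, had 0.34 and 6.99 FPKM, and ISG20 1.19 and 2.8 FPKM. MX1, IRF1, RSAD2, DDX58 and CMPK2 did not reach 1 FPKM in either line.

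The core of the interferon-stimulated response element, taken as GAAA followed after any 2 bases by GAAA, was searched on both strands of the promoters, a choice made after the values were seen. Of the 34 members, 23 had a promoter in the table, and 16 of these (69.6%) held it at least once, against 3.65% of all promoters and 2.76% of those of the protein-coding genes kept. It was in 14 of the 20 matched members that were higher in JJ012 and in 2 of the 3 that were not. The promoters of 3 genes higher in JJ012 and of HERC5, higher in 143B, are shown with the matches in capitals.
BST2 (chr19:17405581-17405880, minus strand): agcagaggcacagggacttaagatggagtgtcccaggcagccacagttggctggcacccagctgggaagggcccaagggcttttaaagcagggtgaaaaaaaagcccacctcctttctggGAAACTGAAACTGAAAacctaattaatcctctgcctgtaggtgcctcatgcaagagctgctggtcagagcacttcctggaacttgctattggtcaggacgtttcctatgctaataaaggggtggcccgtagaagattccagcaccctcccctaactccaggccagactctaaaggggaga
IFI6 (chr1:27672143-27672442, minus strand): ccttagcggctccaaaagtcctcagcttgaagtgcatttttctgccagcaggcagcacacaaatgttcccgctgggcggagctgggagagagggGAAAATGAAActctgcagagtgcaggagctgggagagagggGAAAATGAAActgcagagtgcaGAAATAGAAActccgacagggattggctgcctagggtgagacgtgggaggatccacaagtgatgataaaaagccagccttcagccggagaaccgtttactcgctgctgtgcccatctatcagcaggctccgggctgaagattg
IFI44L (chr1:78620198-78620497, plus strand): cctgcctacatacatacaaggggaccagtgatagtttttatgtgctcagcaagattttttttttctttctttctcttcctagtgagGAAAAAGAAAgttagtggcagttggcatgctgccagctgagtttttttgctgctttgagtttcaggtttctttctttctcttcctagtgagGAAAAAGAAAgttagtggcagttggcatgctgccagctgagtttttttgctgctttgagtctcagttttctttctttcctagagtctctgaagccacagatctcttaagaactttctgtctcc
HERC5 (chr4:88456869-88457168, plus strand): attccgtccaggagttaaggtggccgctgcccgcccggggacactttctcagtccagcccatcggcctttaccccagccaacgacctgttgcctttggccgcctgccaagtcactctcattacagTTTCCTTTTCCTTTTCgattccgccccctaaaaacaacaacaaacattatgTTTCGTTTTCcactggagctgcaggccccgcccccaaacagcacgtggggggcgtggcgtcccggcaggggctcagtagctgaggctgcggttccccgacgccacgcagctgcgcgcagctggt
BST2 and IFI44L held 2 matches each and IFI6 and HERC5 held 3 each. Promoters with the element were thus found for genes of both directions, and a match does not say that a factor was bound. The group was made of interferon-stimulated genes, so its share against all promoters does not bear on the difference between the lines.

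Antigen presentation genes went the same way in number. Of 24 members kept, 17 (70.8%) were higher in JJ012 and 2 (8.33%) in 143B, against 41.3% and 27.4% of all genes. The median was 1.19, which was 0.90 from the median gene, and the length-adjusted median was 0.81. B2M, the light chain of MHC class I, had 1009.43 FPKM in JJ012 and 135.37 FPKM in 143B (7.46-fold, 7.27 to 7.65). HLA-E had 301.16 and 77.71 FPKM, which was 3.88-fold (3.74 to 4.02) higher in JJ012. The peptide-trimming protease ERAP2 had 20.57 and 0.68 FPKM. TAP1 and TAP2, the peptide transporter, had 13.17 and 9.21 FPKM and 1.59 and 1.37 FPKM, and neither passed 0.58. CD47, a membrane signal that inhibits phagocytosis, was higher in 143B, with 8.96 and 108.76 FPKM (12.1-fold, 11.5 to 12.8). MICB, a stress-induced ligand of natural killer cells, had 0 counts in JJ012 and 6.82 FPKM in 143B. HLA genes are highly variable between people and similar to each other, so reads of alleles far from the reference can be lost. Markers of blood cells were low in both libraries. Only 3 of 18 passed 1 FPKM, their summed level was 18.54 FPKM in JJ012 and 1.83 FPKM in 143B, and PTPRC, the pan-leukocyte marker, had 42 and 6 counts. Among the 3 was the T cell receptor subunit CD3E, with 9.73 FPKM in JJ012 and 0 counts in 143B, without CD8A or CD4 reaching 1 FPKM.

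Complement and coagulation genes were also more often higher in JJ012, in 20 of 31 members against 7 in 143B, with a median of 1.22, which was 0.93 from the median gene, and a length-adjusted median of 0.83. The complement proteases C1R, with 41.24 and 0.73 FPKM, and CFD, with 55.93 and 0.73 FPKM, and the anticoagulant protein S (PROS1), with 64.59 and 4.38 FPKM, were higher in JJ012. Other members of the list were higher in 143B, while the surface receptors PROCR, F2R and F2RL2 were among those higher in JJ012. Tissue factor (F3) had 6.09 and 51.03 FPKM, thrombomodulin (THBD) had 0 counts and 46.19 FPKM, and the inhibitor TFPI2 had 0 counts and 66.28 FPKM.

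The labelled tumour types were checked against their defining markers. SOX9 and RUNX2 were detected in both lines, whereas COL2A1, ACAN, SP7 and ALPL were at or near 0 in both. SOX9 had 15.06 FPKM in JJ012 and 15.48 FPKM in 143B, and the interval of the ratio, 0.892 to 1.06, included equal levels. COL2A1, type II collagen, had 0 counts in JJ012 and 2 counts in 143B, and ACAN, aggrecan, had 4 and 19 counts. Of 29 chondrocyte markers 13 were kept, 5 of them higher in JJ012 and 4 in 143B, and the median of 0.18 changed sign with TPM, median-of-ratios size factors, centring and length adjustment. COL11A1, a minor cartilage collagen, and CHI3L1, a glycoprotein of chondrocytes and macrophages, had 22.92 and 33.27 FPKM in JJ012 and 0 counts in 143B. COL9A3, another minor cartilage collagen, was higher in 143B instead, with 3.18 and 62.47 FPKM (19.6-fold, 17.5 to 22.2).

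The osteoblast markers did not set 143B apart either. RUNX2 had 3.02 FPKM in JJ012 and 4.28 FPKM in 143B, SP7 had 8 and 0 counts, and ALPL, alkaline phosphatase, had 20 and 17 counts. Of 17 members kept, 9 were higher in JJ012 and 5 in 143B. SPP1, osteopontin, had 79.39 and 0.4 FPKM (199-fold in JJ012, 149 to 272). COL1A1 and COL1A2, the chains of type I collagen, had 10.92 and 12.48 FPKM in JJ012 and 0.49 FPKM and 0 counts in 143B. SPARC, osteonectin, had 124.78 and 30.23 FPKM. PDPN, a mucin-like protein of early osteocytes, had 0.08 FPKM in JJ012 and 14.79 FPKM in 143B, and CDH11, osteoblast cadherin, 2.83 and 25.99 FPKM. By these markers the JJ012 library had more type I collagen and osteopontin mRNA than the library of the osteosarcoma line.

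**Figure D4:**
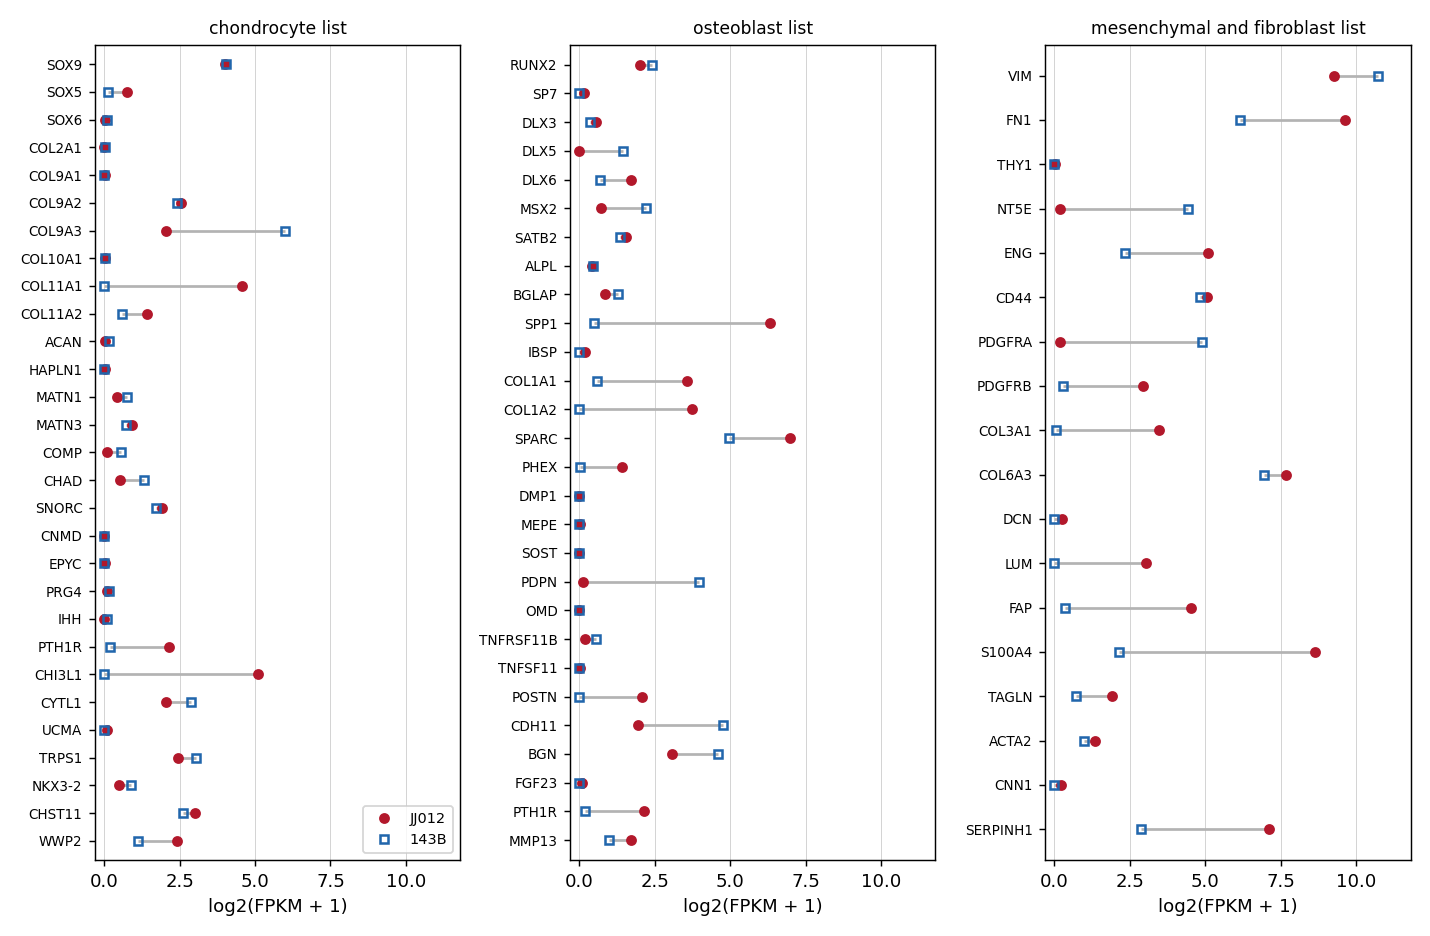
Levels of the chondrocyte, osteoblast and mesenchymal markers as log2(FPKM + 1), with JJ012 as red circles and 143B as blue squares and a grey line between them. COL2A1, ACAN, SP7 and ALPL lie near 0 in both lines, while SPP1, S100A4, PDGFRA and NT5E differ strongly.

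Mesenchymal markers were present in both lines, but different ones. VIM, vimentin, had 610.99 FPKM in JJ012 and 1676.32 FPKM in 143B (2.74-fold, 2.72 to 2.77). FN1, fibronectin, had 799.64 and 69.52 FPKM (11.5-fold in JJ012, 11.3 to 11.7). The receptor PDGFRA had 0.15 and 28.57 FPKM and its relative PDGFRB had 6.59 and 0.22 FPKM. NT5E (CD73) was higher in 143B, with 0.14 and 20.53 FPKM, whereas ENG (CD105) was higher in JJ012, with 33.06 and 4.04 FPKM. THY1 (CD90), the third marker used to define mesenchymal stromal cells, had 1 count in JJ012 and 0 in 143B. FAP, a protease of activated fibroblasts, had 21.86 and 0.27 FPKM, and the collagen chaperone SERPINH1 138.6 and 6.31 FPKM. Of 15 members kept, 10 were higher in JJ012 and 3 in 143B. CDH1, E-cadherin, had 1 and 0 counts. N-cadherin, CDH2, had 4.74 and 6.94 FPKM, a difference of -0.47. Of the EMT factors, TWIST1 was 7.33-fold higher in JJ012 (6.34 to 8.51), with 47.11 and 6.43 FPKM, while ZEB1, with 8.31 and 24.0 FPKM, and SNAI1, with 5.58 and 17.94 FPKM, were higher in 143B.

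Markers of other cell types were mostly below 1 FPKM, with exceptions in both lines. Muscle markers were higher in JJ012 in all 6 of 18 that were kept. Of the troponins, TNNT3 had the largest difference of the list, with 19.55 FPKM in JJ012 and 0.16 FPKM in 143B. TNNT1 had the smallest, with 83.34 and 34.33 FPKM, and DES, desmin, had 1.97 FPKM and 0 counts. Of 21 epithelial markers 9 were kept, 4 of them higher in JJ012 and 5 in 143B. Keratins 8 and 18 (KRT8 and KRT18) were higher in 143B, at 9.64 and 35.82 FPKM against 5.46 and 13.77 FPKM, and the tight junction protein CLDN7 in JJ012, with 22.26 and 0.03 FPKM. Endothelial markers gave 2 of 5 in each direction, with FLT1 at 0.03 and 40.4 FPKM, neural markers 2 of 7 in JJ012 and 4 in 143B, and adipocyte markers 2 of 5 in each direction. The adipocyte regulator PPARG had 0.04 and 8.89 FPKM, and the fatty acid receptor CD36 had 12.52 FPKM in JJ012 and 0 counts in 143B.

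The matrix genes divided between the lines. Of 25 collagens kept, 11 were higher in each line, and their median of 0.12 changed sign with TPM, TMM factors, median-of-ratios size factors, centring and length adjustment. COL6A1 and COL6A2 had 106.99 and 124.86 FPKM in JJ012 and 321.82 and 445.87 FPKM in 143B, while COL6A3, the chain they assemble with, had 203.52 and 121.31 FPKM. The small leucine-rich proteoglycans FMOD and LUM had 31.88 and 7.15 FPKM in JJ012 and 0 counts in 143B, whereas BGN, of the same family, was higher in 143B, with 7.51 and 23.01 FPKM. The large proteoglycan VCAN had 2 counts in JJ012 and 7.37 FPKM in 143B. Syndecan 1 (SDC1) had 53.49 and 2.72 FPKM, and syndecan 4 (SDC4) the opposite, 17.28 and 182.93 FPKM. Of 34 laminins, nidogens and other matrix glycoproteins kept, 11 were higher in JJ012 and 14 in 143B. The basement membrane genes NID1, with 0.64 and 20.76 FPKM, and LAMB1, with 2.5 and 25.71 FPKM, were higher in 143B. Among integrins, ITGA2, a collagen receptor subunit, had 7.57 and 126.16 FPKM and ITGB3 2.07 and 24.85 FPKM, whereas ITGA10, a collagen II receptor subunit of chondrocytes, had 24.54 and 4.8 FPKM.

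Proteases of the lines were different members of the same families. In 143B, MMP1, MMP9, MMP10 (0.03 and 7.76 FPKM) and the urokinase PLAU (0.42 and 26.74 FPKM) were higher. In JJ012, MMP7, matrilysin, had 57.44 FPKM and 2 counts were found in 143B, MMP2 had 121.29 and 42.62 FPKM (2.85-fold, 2.74 to 2.96), and the inhibitors TIMP2, with 175.09 and 10.69 FPKM, and TIMP4, with 140.28 and 6.01 FPKM, were higher. MMP14, the membrane-bound activator of MMP2, was abundant in both, with 193.93 and 121.28 FPKM. Of 33 members kept, 18 (54.5%) were higher in JJ012 and 11 (33.3%) in 143B. For all genes these shares were 41.3% and 27.4%.

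RAS-ERK output genes were the group with the largest share on the 143B side among those of more than 20 genes. They encode feedback inhibitors and transcription factors that follow ERK activity. Of 23 members, all kept, 20 were higher in 143B, against 27.4% of all genes, and 1 was higher in JJ012. The median was -1.72 and the length-adjusted median was -1.91. DUSP6 had 6 counts in JJ012 and 6800 counts in 143B (1371-fold, 629 to 3737). DUSP5 had 15.62 and 131.23 FPKM (8.40-fold, 7.78 to 9.08), and SPRY4, an inhibitor of receptor signalling to RAS, had 1.49 and 23.81 FPKM. The immediate early genes EGR1, with 2.67 and 23.13 FPKM, IER3, with 44.59 and 381.8 FPKM, and FOSL1, with 19.96 and 74.34 FPKM, were higher in 143B, as was cyclin D1 (CCND1), with 14.05 and 43.97 FPKM. PHLDA1 was the member higher in JJ012, with 95.05 and 59.39 FPKM.

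Growth factor receptors also leaned to 143B, with 19 of 33 receptor tyrosine kinases higher there and 8 in JJ012 and a median of -1.07, which was -1.35 from the median gene, and a length-adjusted median of -1.21. EGFR had 4.96 and 18.49 FPKM (3.73-fold, 3.52 to 3.95) and IGF1R 2.83 and 29.06 FPKM (10.3-fold, 9.53 to 11.1). FLT1, a VEGF receptor, had 8 and 8066 counts, or 0.03 and 40.4 FPKM, and LTK had 0.22 and 25.94 FPKM. ERBB2, with 5.98 and 1.16 FPKM, MET, with 31.16 and 14.8 FPKM, and the collagen receptor DDR2, with 19.13 and 2.77 FPKM, were higher in JJ012. The IGF system had a median of -2.05, which was -2.34 from the median gene, and a length-adjusted median of -2.25. This was the lowest of the groups as computed, but not under each alternative. The HOXA cluster was lower with TPM and with CPM, and the group of melatonin receptors and aryl hydrocarbon receptor targets with TPM. Over the 6 alternatives the HOXA and HOXD clusters reached -3.35 and -3.20, against -2.72 for the IGF system. Of the 14 genes of this list kept, 10 were higher in 143B and 4 in JJ012. The list also holds IGF2BP1, IGF2BP2 and IGF2BP3, which bind mRNA and not the IGF ligands. All of these were among the genes higher in 143B, so the count and the median do not describe IGF-binding proteins alone. IGF2 had 0.92 and 36.02 FPKM (39.3-fold, 32.9 to 47.3), IGFBP3 had 6.02 and 224.19 FPKM (37.2-fold, 34.1 to 40.7), and IGFBP4 had 0.24 and 30.25 FPKM. STC2, a glycoprotein that inhibits the IGFBP protease PAPPA, had 3.24 and 135.85 FPKM. IGFBP6 and IGFBP7 were on the other side, with 68.42 and 58.23 FPKM in JJ012 and 14.49 and 13.4 FPKM in 143B.

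Inflammatory genes were higher in 143B in 15 of 24 members, against 5 in JJ012, with a median of -1.35, which was -1.63 from the median gene, and a length-adjusted median of -1.84. The interleukins IL1A and IL1B had 0.18 and 0.02 FPKM in JJ012 and 32.95 and 32.75 FPKM in 143B. The neutrophil chemokine CXCL8 had 1.87 and 66.83 FPKM (35.7-fold, 29.1 to 44.4), the prostaglandin synthase PTGS2 had 1.46 and 81.09 FPKM (55.5-fold, 47.3 to 65.5), and IL6 had 0.22 and 8.72 FPKM. The NF-kB feedback genes TNFAIP3, with 2.64 and 10.63 FPKM, and NFKBIA, with 14.2 and 36.1 FPKM, followed the same direction. IL18, with 6.63 FPKM in JJ012 and 3 counts in 143B, and CXCL16, with 10.73 and 1.06 FPKM, were higher in JJ012.

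Hypoxia response genes were higher in 143B in 15 of 25 members and in JJ012 in 7, with a median of -0.90, which was -1.18 from the median gene, and a length-adjusted median of -0.76. ADM was 169-fold higher in 143B (133 to 219). The lipase inhibitor ANGPTL4 had 39.86 and 316.12 FPKM, the glycolytic regulator PFKFB3 had 17.8 and 170.61 FPKM, and DDIT4, an mTORC1 inhibitor, had 99.37 and 413.38 FPKM. CA9, a carbonic anhydrase of hypoxic tumour cells, was the reverse, with 166.0 and 5.55 FPKM (29.9-fold in JJ012, 25.3 to 35.6). HIF1A had 77.77 and 44.49 FPKM, while EPAS1, which encodes the HIF-2 alpha subunit, had 9.11 and 64.01 FPKM. The word ACGTG, the core of the hypoxia response element, was read on both strands and was in 47.6% of the 21 matched promoters of the group. It was in 26.7% of those of the protein-coding genes kept and in 21.6% of all promoters. The group was made of hypoxia response genes and its promoters were not split by direction, so this share does not bear on the difference between the lines.

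Glucose metabolism genes were found in both directions. Of 26 glycolysis and pyruvate genes, 6 were higher in JJ012, 7 in 143B and 13 passed 0.58 in neither direction. The median was -0.08, which was -0.37 from the median gene, and the length-adjusted median was -0.60. The glucose transporter SLC2A3 had 38.71 and 461.09 FPKM (11.9-fold, 11.6 to 12.3), whereas the lactate exporter SLC16A3 had 49.33 and 9.78 FPKM and the aldolase ALDOC 174.87 and 19.76 FPKM.

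Glutamine transporters differed by member, which bears on the transporter SLC38A5 that the study is about. SLC38A5 (chromosome X) had 10.82 FPKM in JJ012 and 0.45 FPKM in 143B, from 835 and 29 counts (23.8-fold, 16.5 to 35.8). SLC38A1 had 3 counts in JJ012 and 20.19 FPKM in 143B, and SLC38A2 had 73.62 and 225.67 FPKM (3.07-fold, 2.99 to 3.14). SLC1A5, the main transporter of glutamine in many tumour cells, had 44.52 and 28.56 FPKM, a difference that changed sign with length adjustment. Glutamine synthetase (GLUL) had 0.36 and 5.53 FPKM. Of 21 members kept, 8 were higher in JJ012 and 9 in 143B. PHGDH, the entry enzyme of serine synthesis, had 1.94 and 47.83 FPKM (24.6-fold, 22.1 to 27.5).

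Redox genes were more often higher in JJ012, in 18 of 30 NRF2 targets and antioxidant enzymes against 4 in 143B. The median was 0.96, which was 0.68 from the median gene, and the length-adjusted median was 0.32. The quinone reductase NQO1 had 40.53 and 7.58 FPKM, and the peroxiredoxin PRDX2 had 69.81 and 2.85 FPKM. The extracellular superoxide dismutase SOD3 had 39.79 FPKM in JJ012 and 0 counts in 143B. Genes of glutathione synthesis were in the other direction. The cystine transporter SLC7A11 had 1.13 and 3.83 FPKM, GCLC had 0.53 and 3.96 FPKM and GCLM had 6.38 and 10.58 FPKM. NFE2L2, which encodes NRF2 itself, had 6.99 and 7.02 FPKM.

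Genes that bear on the known histories of the lines were looked at next. TK1, the cytosolic thymidine kinase, had 9.5 FPKM in JJ012 and 1.33 FPKM in 143B, from 337 and 39 counts (7.14-fold, 5.12 to 10.2). CDA, cytidine deaminase, had 46.26 FPKM in JJ012 and 0 counts in 143B. IDH1 had 17.95 and 6.13 FPKM (2.93-fold, 2.64 to 3.25) and the mitochondrial IDH2 19.23 and 47.15 FPKM, and these levels carry no information on the mutation. The cell cycle inhibitors CDKN2A and CDKN2B had 0 counts in both lines. Their neighbour MTAP, of the methionine salvage pathway, had 22 counts in JJ012 and 0 in 143B.

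Melatonin receptors were not detectable at this depth. MTNR1A and MTNR1B had 2 counts each in JJ012 and 0 in 143B, which is within the floor of 3 counts. The nuclear receptor RORA, discussed as a melatonin-responsive factor, had 0.23 and 29.54 FPKM (129-fold in 143B, 103 to 164). The aryl hydrocarbon receptor AHR had 0.32 and 2.93 FPKM, its target CYP1B1 had 0 counts and 18.92 FPKM, and TIPARP, another target, had 3.73 and 20.26 FPKM, whereas CYP1A1 had 2.06 and 2.34 FPKM.

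Positional identity genes gave each line its own code. HOX genes are arranged in 4 clusters and keep the position along the body axis at which a cell arose. In the HOXC cluster 6 of 7 members kept were higher in JJ012 and 0 in 143B, with 67.99 and 21.18 FPKM of HOXC10 (3.21-fold, 2.97 to 3.47). In the HOXD cluster all 4 members kept were higher in 143B, and in the HOXA cluster 5 of 8, with 1 of 8 higher in JJ012. HOXA9, HOXA10 and HOXA11 had 0 counts in JJ012 and 9.54, 3.8 and 4.27 FPKM in 143B. HOXA3 had 0.33 and 3.36 FPKM and HOXA5, the member higher in JJ012, 2.33 and 0.7 FPKM, while HOXA4, with 4.73 and 3.06 FPKM, passed 0.58 in neither direction. In the HOXB cluster 5 of 9 were higher in 143B and 1 in JJ012. HOXB9 had 8.47 and 44.95 FPKM, HOXB4 had 0.21 and 10.78 FPKM, and HOXB13 was higher in JJ012, with 4.57 and 0.58 FPKM. HOX genes overlap each other and antisense transcripts, so reads of neighbouring members may be shared. The limb factor TBX15 had 2.87 and 71.73 FPKM, and FOXF1, a factor of visceral mesenchyme, 0 counts and 9.64 FPKM.

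**Figure D5:**
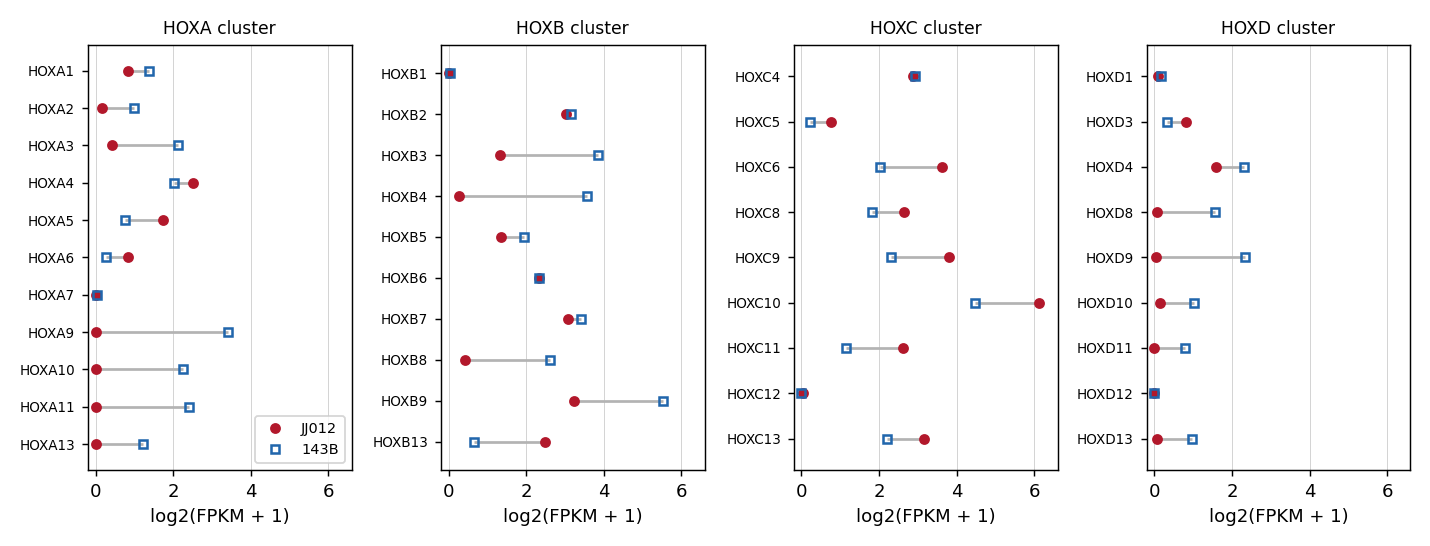
Levels of the genes of the 4 HOX clusters as log2(FPKM + 1), with JJ012 as red circles and 143B as blue squares. HOXC6 to HOXC13 are higher in JJ012 apart from HOXC12, which is near 0 in both lines, and HOXA9 to HOXA13 and HOXD8 to HOXD10 are found mainly in 143B.

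Antagonists of the BMP and Wnt pathways were found in both directions. The BMP inhibitors NOG, with 2.01 and 94.48 FPKM (46.9-fold, 37.3 to 60.0), and GREM1, with 4 and 3329 counts, were higher in 143B and were chosen here after their values were seen, as was the Notch target HES1, with 0.3 and 46.15 FPKM. The secreted inhibitors FST, with 6.88 and 0.27 FPKM, and FSTL3, with 61.23 and 17.33 FPKM, were higher in JJ012. In the Wnt list 13 of 30 members kept were higher in 143B and 6 in JJ012. SFRP1, which binds Wnt ligands, had 0.29 and 82.85 FPKM (290-fold, 198 to 444), and NKD2, an intracellular antagonist, had 0 counts in JJ012 and 33.61 FPKM in 143B. AXIN2, a general target of beta-catenin, had 1.22 and 1.2 FPKM.

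Of 33 proliferation genes kept, 11 (33.3%) were higher in 143B, against 27.4% of all genes, and 4 in JJ012. The median was -0.37, which was -0.65 from the median gene, and the length-adjusted median was -0.86. MKI67, a marker of cycling cells, had 1.73 and 6.4 FPKM and UBE2C 11.41 and 56.47 FPKM, whereas TOP2A, with 10.29 and 12.18 FPKM, and CDK1, with 6.71 and 8.44 FPKM, did not pass 0.58. Cyclin D2 (CCND2) had 4 counts in JJ012 and 16.06 FPKM in 143B. Among BCL2 family genes, the inhibitors MCL1 and BCL2A1 were higher in 143B, with 299.15 and 37.0 FPKM against 53.15 and 0.84 FPKM, and BCL2L1 in JJ012, with 14.47 and 2.25 FPKM. The death receptor TNFRSF10B had 9.79 and 76.41 FPKM. The median of the BCL2 list, 0.30 over 30 members, changed sign with TPM and with length adjustment. PI3K-Akt components had a median of 0.02, with 8 of 25 higher in JJ012 and 6 in 143B, and changed sign with TPM, TMM factors, median-of-ratios size factors and centring. PIK3CA had 2.8 and 4.71 FPKM and AKT1 15.33 and 13.34 FPKM. The DNA damage sensitizer SLFN11 had 1 count in JJ012 and 15.82 FPKM in 143B, and the drug exporter ABCC2 had 8.89 and 0.11 FPKM.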

How the data were processed

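Poly(A)-selected RNA of untreated JJ012 and 143B cells grown in suspension was sequenced as read pairs, 1 library per line. The submitters' processing notes name cutadapt 1.9.1, HISAT2 2.2.1, HTSeq 0.6.1, DESeq2 and the build hg38. The annotation release, the strand setting and the treatment of reads shared by several genes are not given in the sources used here. The authors deposited gene counts, FPKM and the exonic length of each gene in 1 table, and the FPKM equal the counts divided by length and by the total count. The 4 per-sample columns of the melatonin libraries were not used. Gene types came from GENCODE 29, in which 58254 of the 61806 genes were found.

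From the deposited FPKM, log2(FPKM + 1) was differenced for genes with at least 1 FPKM in either library, leaving out 527 genes (chromosome Y and a gene of X inactivation). With 1 library per line no count test was planned or run, so no p-value is given. Ratios of counts scaled to the library total (CPM) had exact 95% intervals in scipy 1.17.1. TMM factors were taken from edgeR 4.0.16 in R 4.3.3. Other steps used Python 3.11.15, pandas 2.3.3, numpy 2.4.6 and matplotlib 3.10.9, and were tested on simulated data. Reads of PCR copies are not independent molecules, so intervals and floors cover counting error only.

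The genes, the 54 gene lists and their thresholds were chosen with earlier results of these data known. Named by rule were the 15 protein-coding genes with the largest difference in each direction at 5 FPKM or more, the 8 most abundant of each library, the first 3 and up to 8 largest of each list, single-line genes of the lists, glutamine transporters, VIM and CDH1. Some genes that this rule names are not reported here. Other genes were chosen after their values were seen. Of 999 list genes kept, 198 overlap another gene on the same strand and 461 on the other strand, and their reads may be shared. Genes with near-identical copies (GAGE, MAGEA, CTAG, PAGE, HLA, metallothionein and ribosomal protein genes) are uncertain. The alternatives were other pseudocounts, filters, scalings and floors. The search for the interferon-stimulated response element and the length adjustment (the running median of 501 genes ordered by exonic length) were added after seeing the data. The count of ACGTG in the promoters of gene groups was also not in the plan, which named this word for single-line genes.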

Additional observations from a re-analysis of the deposited data

How the results depend on the processing

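Counting error does not cover the spread between cultures, and 1 library per line leaves that spread unknown, so no result here has a replicate check. No paired analysis was possible because each line had 1 untreated library. At 0.58, 6988 genes were higher in JJ012 and 4635 in 143B, out of 16925. A filter of 5 FPKM gave 3589 and 2562 out of 8857 genes. JJ012 then held 58.3% of the genes past 0.58, against 60.1%. TPM gave 9431 and 8984 out of 24585 genes, and length adjustment gave 5051 and 5537 out of 16925. The same totals apply at a difference of 2. Against 1301 and 930 genes at a difference of 2, a pseudocount of 0.1 FPKM gave 3418 and 2194, TPM gave 2734 and 2759, CPM gave 2150 and 1300, and length adjustment gave 858 and 1252. TPM values carry larger numbers than FPKM here, so the same pseudocount weighs less. For genes found in JJ012 only (276) and genes found in 143B only (185), a level of at least 1 FPKM gave 1821 and 1110. For 143B, at most 10 counts in the other library gave 294, and 0 counts gave 87. Of the 54 list medians, 48 kept their sign under 6 alternatives. Those of chondrocyte markers, collagens, nucleotide salvage, PI3K-Akt components, the BCL2 family and long noncoding RNAs did not. With length adjustment 6 changed sign, namely chondrocyte markers (-0.28), adipocyte markers (-0.24), collagens (-0.32), nucleotide salvage (-0.38), the BCL2 family (-0.07) and the S100 family (-0.36). Of 783 list genes past 0.58, 0 changed sign with pseudocount, CPM, TPM, TMM, size factors or centring, and up to 59 dropped below 0.58. With length adjustment 84 dropped below 0.58, and 11 of these changed sign, namely BAK1 (-0.17), TIMP1 (-0.22), SLC1A5 (-0.0058), PCNA (-0.29), NSDHL (-0.30), ESAM (-0.17), TRIAP1 (-0.093), TNFRSF10C (-0.20), S100A13 (-0.098), RPS26 (-0.010) and MT1F (-0.0903).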

Other observations

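Imprinted genes, which are expressed from a single parental copy, were higher in 143B in 12 of 20 members kept and in JJ012 in 5, with a median of -1.28 and a length-adjusted median of -1.39. The growth factor receptor adaptor GRB10 had 0.19 FPKM in JJ012 and 25.41 FPKM in 143B, the stimulatory G protein subunit GNAS had 49.03 and 169.69 FPKM, and PEG10, a gene derived from a retrotransposon, had 0 counts and 5.21 FPKM. H19 and IGF2, which lie side by side and are expressed from opposite parental copies, went in opposite directions. H19 had 2.41 and 0.02 FPKM, and IGF2 had 0.92 and 36.02 FPKM.

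The stress cytokine GDF15 had 13.81 FPKM in JJ012 and 0.24 FPKM in 143B, and PHLDA3, an inhibitor of Akt, had 25.43 and 1.53 FPKM, whereas the cell cycle inhibitor CDKN1A had 55.11 and 94.3 FPKM. Of 16 cyclin D, CDK and CDK inhibitor genes, 5 were higher in JJ012 and 7 in 143B. CDK4 had 23.81 and 7.16 FPKM and CDK6 the reverse, 2.4 and 6.48 FPKM.

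Sterol synthesis genes were divided, with 8 of 23 higher in JJ012 and 9 in 143B. SC5D had 3.91 and 84.99 FPKM and PMVK had 19.94 and 1.19 FPKM. The S100 family gave 5 of 11 in JJ012 and 3 in 143B, the metallothioneins 4 of 7 and 1, and the nucleotide salvage genes 7 of 17 and 4. Serine and proline synthesis gave 7 of 18 in JJ012 and 8 in 143B, the isocitrate dehydrogenase group 3 of 9 and 4, integrins 8 of 19 in each direction, and cadherins 5 of 10 and 4. Proteoglycans gave 10 of 23 in JJ012 and 9 in 143B. Over all genes kept, 41.3% were higher in JJ012 and 27.4% in 143B. The JJ012 shares of nucleotide salvage (41.2%), integrins (42.1%) and proteoglycans (43.5%) were near that of all genes. Their 143B shares were 23.5%, 42.1% and 39.1%.

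Secreted growth factors differed by member, with 12 of 26 higher in JJ012 and 9 in 143B. PTN, pleiotrophin, had 22.65 FPKM in JJ012 and 0 counts in 143B, while its relative MDK, midkine, had 1.43 and 15.92 FPKM. PDGFA had 3.66 and 47.19 FPKM, and GAS6, a ligand of TAM receptors, had 29.65 and 4.8 FPKM. In the TGF-beta and BMP family 11 of 35 were higher in JJ012 and 14 in 143B, in the Notch and Hedgehog pathways 7 of 22 and 9, in the YAP and EMT group 6 of 23 and 11, in the patterning factors 7 of 26 and 11, and in the drug transporter and DNA damage group 5 of 22 and 7. The Notch ligand DLL1 had 0.15 and 12.38 FPKM and DLL3 8.78 and 0.53 FPKM. CCN3, a secreted protein of the CCN family, had 31.15 and 0.1 FPKM, while TEAD4, a partner of YAP, had 3.43 and 30.73 FPKM.

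Long noncoding RNAs gave 6 of 21 members in JJ012 and 7 in 143B, with a median of 0.05 that changed sign with TPM, TMM factors, size factors and centring. NEAT1, the scaffold of paraspeckles, had 177.13 and 11.77 FPKM, HOTAIR, from the HOXC cluster, had 8.69 and 0.61 FPKM, and NORAD had 95.41 and 291.32 FPKM.

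By position, the median difference of a chromosome ran from -0.39 on chromosome 18 to 0.65 on chromosome 19. Among 248 windows of 10 Mb, the highest median, 1.17, was that of the first 10 Mb of chromosome 16, where 100 of 147 genes were higher in JJ012 and 7 in 143B. The lowest, -1.06, was that of chromosome 7 from 50 to 60 Mb, with 1 of 15 genes higher in JJ012 and 10 in 143B. The part of gene length, GC content and copy number in these values was not tested. Over 319 annotated pathways the middle pathway median was 0.18, below the 0.29 of the median gene. The highest was that of chondroitin and dermatan sulfate synthesis, 1.36, with 13 of 17 genes higher in JJ012 and 3 in 143B, and the lowest was that of Hippo signalling in its form shared across species, -0.90.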
